A study of Mus musculus with 4 samples.

Results

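The 5 genes described here encode the receptors and ligands of the BAFF and APRIL system. The receptors are Tnfrsf17 (BCMA), Tnfrsf13b (TACI) and Tnfrsf13c (BAFF-R), and the ligands are Tnfsf13b (BAFF) and Tnfsf13 (APRIL). Members were taken as the rows with these symbols, each found once, among the 32285 genes of both expression matrices. They were read in single cells from subcutaneous tumours of MC38, a colon carcinoma line of the mouse, in female C57BL/6 hosts 12 to 16 weeks old. The knockout mice were Prdm1 f/f CD19cre, in which cre removes the floxed Prdm1 alleles in B-lineage cells, and the control mice were Prdm1 f/f, with no cre named. Prdm1 encodes Blimp-1, a transcription factor needed for plasma cell differentiation. Tumours of 11 recipients per genotype were pooled 18 days after inoculation, and viable cells positive for B220 or for CD138 were sorted and combined; the mixing proportions are not given in the sources used here. Each genotype gave 1 expression library of 5′ transcript ends and 1 B cell receptor (V(D)J) library, so no difference below has a replicate check, and none has a test.

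BAFF and APRIL are trimeric ligands of the TNF superfamily, made largely by myeloid and stromal cells. BAFF-R binds BAFF only and is needed for the survival of mature B cells in mice, TACI binds both ligands, and BCMA binds mainly APRIL and is a hallmark of plasma cells, whose survival in bone marrow it sustains. APRIL also binds heparan sulphate chains, including those of syndecan-1, the CD138 protein used in the sort.

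The knockout library held 897 barcodes and 5463434 UMIs (unique molecular identifiers, 1 per captured transcript), with a median of 3966 UMIs per barcode. In the control library there were 816 barcodes and 6976374 UMIs, with a median of 5851, and 3 barcode sequences occurred in both. After filtering, 865 knockout and 804 control cells fell into 18 clusters, built without the 5 genes and without immunoglobulin genes. The large B-like clusters are kept apart by their leading genes. The one led by Fcer2a, the low-affinity IgE receptor CD23, took the name follicular-like from its markers and held 109 knockout and 180 control cells. The other, with Fcrl5, of the Fc receptor-like family, in first place, held 159 knockout and 47 control cells and was named only as B-like. Of the memory-like marker list, Fcrl5, Bhlhe41 and Zbtb20 were among its leading genes. The list as a whole scored only 0.14 above the other cells on the log2 scale, against 1.73 for the B cell list. A UMI of Cd80, another gene of the memory-like list, was found in 8.25% of its cells. The memory-like label was not used because the list as a whole scored low. A small cluster with B cell markers, led by the interferon-induced gene Ifit3 (19 knockout and 12 control cells), stayed unnamed. All 47 plasma-like cells were control cells. A cluster of 17 knockout and 72 control cells, with S100a9, S100a8, Inhba, Gpnmb, Cxcl2 and G0s2 among its leading genes, scored highest for the neutrophil list (3.31, against 0.43 for the macrophage or monocyte list). At least 1 UMI was found for 16 of its 16 neutrophil markers in the knockout and 14 in the control, which summed to 10821 and 5275 CPM. Per cell the medians of that list were 2230 and 2808 CPM. All 13 macrophage or monocyte markers had a UMI in both libraries. They summed to 6181 CPM in the knockout and 5143 CPM in the control, with medians per cell of 3451 and 4142 CPM. Single genes of the cluster also gave a mixed picture. Ly6g had 1 UMI in 1 knockout cell and none in the control cells. S100a8 was found in 4 of 17 knockout and 10 of 72 control cells, and the macrophage gene Cd68 in 13 of 17 and 67 of 72. It is therefore called the Gpnmb cluster here.

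Levels are given as UMIs per 1000000 UMIs of a group of cells (CPM), with an exact 95% Poisson interval, and ratios as knockout over control with an exact conditional 95% interval. All intervals cover counting error only and say nothing of how mice or libraries vary. Prdm1 itself had 15 UMIs in the knockout B-like cells, or 16.9 CPM (9.44 to 27.8), against 1 UMI in the control B-like cells, or 1.15 CPM (0.0290 to 6.39). In the control plasma-like cells it had 43 UMIs, or 43.1 CPM. The labels do not give the deleted exons, so these counts over the whole gene do not check the deletion. Since the date stamps of the deposited files differ by genotype, genotype and any library batch cannot be told apart.

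Of the 5 genes, Tnfrsf17 lies at chr16:11313232-11320074, Tnfrsf13b at chr11:61126283-61153170, Tnfrsf13c at chr15:82221742-82224380, Tnfsf13b at chr8:10006229-10036000 and Tnfsf13 at chr11:69682577-69685554 in RefSeq on GRCm38.p6. The end of Tnfrsf13b overlaps Usp22, which stood at 14.6 CPM in knockout and 20.6 CPM in control B-like cells. Tnfsf13 overlaps Tnfsf13os, a transcript annotated on the opposite strand, and the read-through gene Tnfsfm13. Whether the counting used strand is not given in the sources used here, so Tnfsf13 counts may be split with these neighbours. The promoters of the receptors are shown because the genes share ligands but differ, as described below, in their levels between groups of cells. Each runs from 250 bases before the start of the transcript to 50 after it, 5′ to 3′ on the gene's strand, as given by RefSeq for GRCm38.p6. Capitals mark the E-box letters CANNTG, which read the same on both strands.
Tnfrsf17: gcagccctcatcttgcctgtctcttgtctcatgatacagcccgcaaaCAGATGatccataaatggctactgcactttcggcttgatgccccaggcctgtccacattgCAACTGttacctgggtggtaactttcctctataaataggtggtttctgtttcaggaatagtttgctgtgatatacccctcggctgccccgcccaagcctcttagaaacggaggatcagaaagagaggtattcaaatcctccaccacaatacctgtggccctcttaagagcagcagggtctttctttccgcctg
Tnfrsf13b: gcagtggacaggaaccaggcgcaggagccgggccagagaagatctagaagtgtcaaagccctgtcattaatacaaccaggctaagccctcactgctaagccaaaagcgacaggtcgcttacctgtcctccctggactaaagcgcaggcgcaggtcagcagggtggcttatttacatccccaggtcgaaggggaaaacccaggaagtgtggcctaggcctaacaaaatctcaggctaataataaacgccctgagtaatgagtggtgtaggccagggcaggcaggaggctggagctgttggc
Tnfrsf13c: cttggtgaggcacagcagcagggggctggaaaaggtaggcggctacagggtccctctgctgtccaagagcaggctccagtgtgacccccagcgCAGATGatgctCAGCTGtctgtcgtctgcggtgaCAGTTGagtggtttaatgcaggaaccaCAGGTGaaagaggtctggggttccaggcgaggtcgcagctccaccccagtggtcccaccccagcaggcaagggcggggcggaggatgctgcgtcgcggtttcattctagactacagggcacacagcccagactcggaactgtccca
The windows are chr16:11313559-11313858 on the plus strand, chr11:61126505-61126804 on the plus strand and chr15:82224331-82224630 on the minus strand. Those of Tnfrsf17 and Tnfrsf13b lie wholly inside the gene spans given above, so the starts used lie downstream of the first base of each span. That of Tnfrsf13c reaches beyond its span. E-boxes near any start further upstream were not counted. The Tnfrsf17 window held 2 E-boxes, that of Tnfrsf13b none and that of Tnfrsf13c 4. Among 32851 promoters of this length, 72.3% held at least 1 E-box, 39.6% at least as many as Tnfrsf17 and 6.49% at least as many as Tnfrsf13c. A match of letters is a description of the sequence and not a site of binding.

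**Figure D1:**
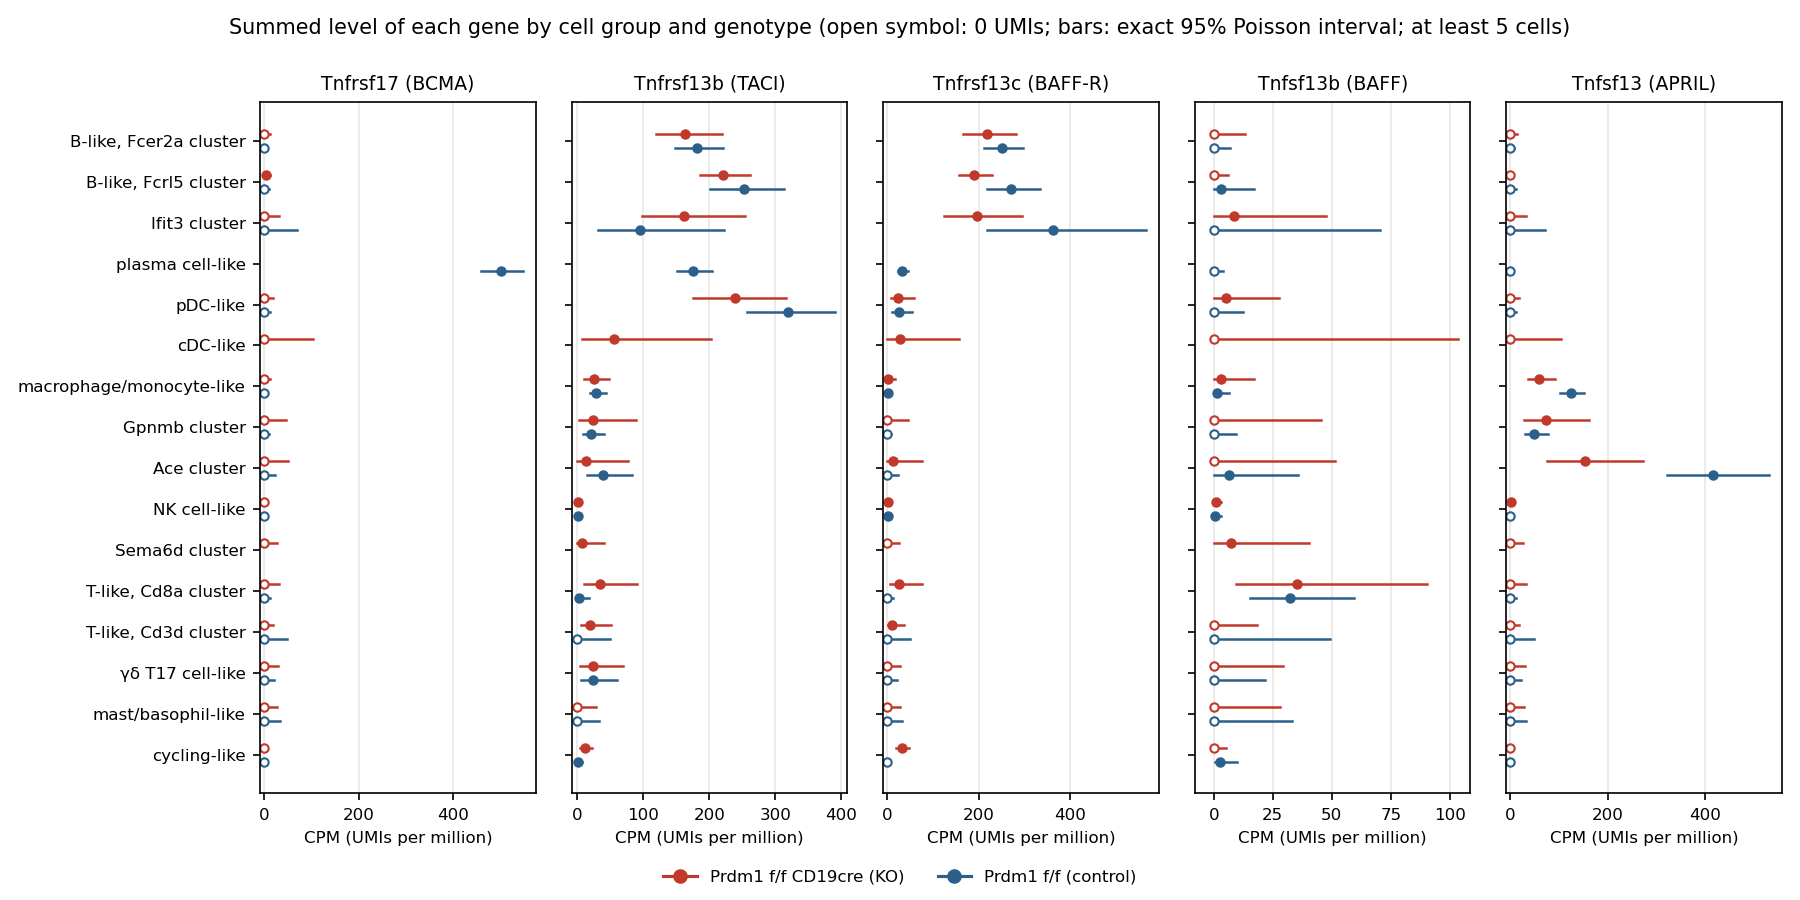
Summed level of each gene (x axis, CPM) in each group of cells (y axis), with knockout points above control points and exact 95% Poisson intervals; libraries with under 5 cells of a group are not drawn. For Tnfrsf17 the control plasma-like cells reached 502 CPM and the other groups were near 0, and Tnfsf13 was highest in the control cells of the Ace cluster at 417 CPM.

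Tnfrsf17 was a plasma-like transcript in these tumours. The control plasma-like cells held 501 UMIs of it, or 502 CPM (459 to 548), found in 44 of 47 cells. Per cell the lowest, median and highest values were 0, 8 and 40 UMIs, so its level varied widely within the cluster, and the cell with the most held 7.98% of the UMIs. Immunoglobulin transcripts took 43.3% of the UMIs of these cells. With them left out of the total, Tnfrsf17 stood at 886 CPM. Of the plasma-like cells, 41 carried an IGHA heavy chain and held 481 of the UMIs, at 552 CPM (504 to 604). In 2 plasma-like cells with an IGHG chain there were 2 UMIs, or 47.5 CPM (5.75 to 172), and in the single cell with an IGHM or IGHD chain there were none.

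Outside that cluster Tnfrsf17 was close to absent. No control cell outside it had a UMI. In the knockout library 2 UMIs were found, 1 in each of 2 cells of the Fcrl5 cluster, and none in 247 knockout NK-like cells (a count of 0 allows up to 1.21% of cells with a UMI). Both Fcrl5-cluster cells had an IGHA heavy chain and were deep, at 9369 and 12250 UMIs. They also carried the other receptors, with 2 and 4 UMIs of Tnfrsf13b and 3 and 2 UMIs of Tnfrsf13c. Their Jchain counts, of the joining chain of IgA and IgM, were 18 and 3 UMIs, and neither had a UMI of Sdc1, Prdm1 or the plasma cell gene Derl3. Over all kept cells Tnfrsf17 was at 0.373 CPM in the knockout and 72.2 CPM in the control library, a ratio of 0.00517 (0.000624 to 0.0188). With Tnfsf13, it was 1 of 2 members at least 1.5-fold lower there among the 4 with 50 UMIs or more, where 6.98% of 9882 genes were as much lower and 7.06% as much higher. The median log2 ratio of those genes was 0.13, and relative to it the Tnfrsf17 ratio was 0.00471. Fewer cells of a type and less RNA per cell cannot be told apart in such a sum. No plasma-like cell among 865 knockout cells allows a share of up to 0.347%, and the unknown proportions of the sorted fractions bear on that share.

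Tnfrsf13b, which encodes TACI, a receptor of both ligands linked to class switching and to responses without T cell help, was found at close levels in B-like cells of both genotypes. In the Fcer2a cluster it had 45 UMIs in knockout cells, or 164 CPM (119 to 219), and 99 UMIs in control cells, or 182 CPM (148 to 221). In the Fcrl5 cluster it had 136 UMIs in knockout cells, or 221 CPM (186 to 262), and 83 UMIs in control cells, or 253 CPM (202 to 314). The intervals of the genotypes overlapped in both clusters. Per cell the lowest, median and highest counts in the Fcrl5 cluster were 0, 1 and 4 UMIs in the knockout and 0, 1 and 8 UMIs in the control. Over both clusters the level was 204 CPM in knockout and 209 CPM in control cells, and the ratio was 0.976 (0.790 to 1.21). In the unnamed Ifit3 cluster it had 19 knockout and 5 control UMIs, with 9 of the knockout UMIs in 1 cell. With 1500 UMIs drawn from every cell, and shallower cells left out (10 knockout and 4 control), a Tnfrsf13b UMI was found in 26.7% of 258 knockout B-like cells and 26.0% of 223 in the control (43.3% and 48.5% without thinning, at median depths of 2686 and 3062 UMIs). In NK-like cells, which should lack the gene, the thinned shares were 0.410% and 0.654%, at median depths of 7209 and 8464 UMIs.

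Tnfrsf13b was also found in cells outside the B lineage. Plasmacytoid dendritic-like cells, the type that makes much of the type I interferon, had 48 UMIs in 38 knockout cells, or 239 CPM (176 to 317), and 94 UMIs in 38 control cells, or 319 CPM (257 to 390). Per cell the lowest, median and highest values were 0, 1 and 4 UMIs in the knockout and 0, 2 and 6 UMIs in the control. Both levels were above those of the B-like clusters of the same genotype, with overlapping intervals except for the control Fcer2a cluster. The ratio was 0.750 (0.518 to 1.07), short of the 1.5-fold that 5.46% of 1558 genes passed downward and 5.13% upward in these cells. The share of cells with a UMI was 76.3% in the knockout and 86.8% in the control. Thinned to 1500 UMIs it was 40.0% of 35 knockout and 31.6% of 38 control cells, and thinned to 1000 UMIs 16.2% of 37 knockout and 26.3% of 38 control cells. The order of the genotypes in these shares thus depended on the thinning, and none is read here. The 9 B cell markers summed to 94.5 CPM in these knockout cells and 94.9 CPM in these control cells, against 9931 and 10033 CPM in B-like cells. Ms4a1, Pax5, Ebf1, Cd22 and Bank1 were at 0 there in both libraries.

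Macrophage- or monocyte-like cells held a lower level of Tnfrsf13b, with 8 UMIs in 46 knockout cells, or 24.7 CPM (10.7 to 48.8), and 25 UMIs in 98 control cells, or 29.1 CPM (18.8 to 42.9). The ratio was 0.852 (0.332 to 1.95). B cell markers summed to 288 CPM in these knockout cells and to 54.6 CPM in these control cells, with all 9 found in both; their part in the Tnfrsf13b level was not tested. Tnfrsf13c, by contrast, had 1 UMI in the knockout and 2 UMIs in the control macrophage-like cells. Gamma delta T17-like cells had 3 knockout and 4 control UMIs of Tnfrsf13b, and NK-like cells 4 and 2. It was at 0 in mast cell- or basophil-like cells of both libraries. In the control plasma-like cells Tnfrsf13b had 175 UMIs, or 176 CPM (150 to 204), in 42 of 47 cells, with 0, 4 and 9 UMIs per cell as the lowest, median and highest values. Of these cells, 40 had both a Tnfrsf17 and a Tnfrsf13b UMI, and 15 had all of the receptors.

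Tnfrsf13c, which encodes BAFF-R, the receptor that carries the BAFF survival signal in mature B cells, lay mostly in cells with B lineage features. Of its 529 UMIs in kept cells, 403 were in B-like cells, 42 in the Ifit3 cluster, 33 in plasma-like cells and 22 in cycling-like cells. It was lower in knockout than in control B-like cells, by less than 1.5-fold at the clustering used. At Leiden resolution 2 Tnfrsf13c was past that fold, with a ratio of 0.632. In the Fcer2a cluster it had 60 UMIs in knockout cells, or 218 CPM (166 to 281), and 137 UMIs in control cells, or 252 CPM (211 to 298). In the Fcrl5 cluster it had 117 UMIs in knockout cells, or 191 CPM (158 to 228), and 89 UMIs in control cells, or 271 CPM (218 to 334). Per cell the lowest, median and highest counts there were 0, 0 and 5 UMIs in the knockout and 0, 1 and 11 UMIs in the control. The ratio was 0.702 (0.529 to 0.936) in the Fcrl5 cluster. It was 0.866 (0.629 to 1.18) among cells of the Fcer2a cluster. Over both clusters the level was 199 CPM in knockout and 259 CPM in control cells, a ratio of 0.768 (0.628 to 0.940). In the unnamed Ifit3 cluster it had 23 knockout UMIs, or 197 CPM (125 to 295), and 19 control UMIs, or 362 CPM (218 to 565), a ratio of 0.543 (0.283 to 1.05).

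At the clustering used, neither Tnfrsf13b nor Tnfrsf13c, the 2 members with at least 50 UMIs in B-like cells, was past 1.5-fold there. Of 4122 genes with that many UMIs, 5.05% were at least 1.5-fold higher and 7.08% at least 1.5-fold lower in the knockout. Nor was either past it within a cluster, where the same shares were 4.6% and 6.2% of 2129 genes for the Fcer2a cluster and 8.02% and 9.91% of 2431 genes for the Fcrl5 cluster. The median log2 ratio of those genes was -0.06, and with the median taken out the Tnfrsf13c ratio was 0.802. Thinned to 1500 UMIs, a Tnfrsf13c UMI was found in 26.0% (20.7% to 31.8%) of the knockout B-like cells and 30.0% (24.1% to 36.5%) of those in the control, and no NK-like cell of either library did. Without thinning the shares were 40.7% and 55.5% in B-like cells and 1.21% and 1.31% in NK-like cells.

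The Tnfrsf13c difference was smaller among B-like cells with a heavy chain in the V(D)J data. Such a chain was found in 256 of 268 knockout and in 85 of 227 control B-like cells. Among them Tnfrsf13c stood at 200.3 CPM in the knockout and 220.2 CPM in the control, a ratio of 0.909 (0.701 to 1.19). Within the Fcer2a cluster that ratio was 1.08 (0.709 to 1.66), and within the Fcrl5 cluster it was 0.822 (0.587 to 1.17). The 142 control B-like cells without a heavy chain were at 294 CPM (247 to 348). That interval overlapped the one of the control cells with a chain (177 to 270). The part of the cells without a chain in the lower knockout level was not tested. Tnfrsf13b was at 208 CPM in control cells with a chain and 209 CPM in those without.

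Heavy-chain class went with the level of Tnfrsf13c in knockout B-like cells. In 24 knockout B-like cells with an IGHA or IGHG chain it had 20 UMIs, or 102 CPM (62.2 to 157), against 152 UMIs, or 229 CPM (194 to 269), in 232 knockout cells with an IGHM or IGHD chain. These intervals did not overlap. Within the Fcrl5 cluster, which held 23 of the switched cells, the levels were 104 CPM (63.6 to 161) in switched and 230.4 CPM (186 to 283) in unswitched cells. The switched cells were deeper, with a median of 6708 UMIs against 2642. Tnfrsf13b stood at 173 CPM (120 to 242) in switched and 214 CPM (181 to 253) in unswitched knockout cells, with overlapping intervals. In the unnamed Ifit3 cluster the order for Tnfrsf13c was the other way. It was at 237 CPM (129 to 397) in 5 switched and 181 CPM (78.2 to 357) in 12 unswitched knockout cells, with overlapping intervals. Tnfrsf13b was also higher in the switched cells there, at 287 CPM (167 to 460) against 45.3 CPM (5.48 to 163). Those intervals did not overlap, but rest on 17 UMIs in 3 switched cells and 2 UMIs in 1 unswitched cell. In the control only 3 B-like cells had a switched chain, with 7 UMIs of Tnfrsf13c, so the same comparison could not be read there.

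In cycling-like cells Tnfrsf13c went with a heavy chain. All 22 of its UMIs in the 36 cycling-like knockout cells lay in the 5 cells with a heavy chain, each of which had between 2 and 10, at 183 CPM. The other 31 knockout cells had none, and neither did the 26 control cells, none of which had a heavy chain. In plasma-like cells Tnfrsf13c had 33 UMIs, or 33.1 CPM (22.8 to 46.5), with a lowest, median and highest value of 0, 0 and 5 UMIs per cell. That was below the levels of both B-like clusters. With immunoglobulin UMIs left out of the totals it was 58.4 CPM, against 206 CPM in knockout and 265 CPM in control B-like cells. On that scale Tnfrsf13b in plasma-like cells was at 309.6 CPM. Plasmacytoid dendritic-like cells had 5 knockout UMIs, or 24.9 CPM (8.08 to 58.0), and 8 control UMIs, or 27.1 CPM (11.7 to 53.4).

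The balance of the TACI and BAFF-R transcripts differed between these cells. UMIs of Tnfrsf13b made up 42.9% (33.2% to 52.9%) of the UMIs of the pair in knockout and 41.9% (35.6% to 48.5%) in control cells of the Fcer2a cluster. In the Fcrl5 cluster the share was 53.8% (47.4% to 60.0%) in the knockout and 48.3% (40.6% to 56%) in the control. In plasma-like cells it was 84.1% (78.4% to 88.8%), and in plasmacytoid dendritic-like cells 90.6% (79.3% to 96.9%) in the knockout and 92.2% (85.1% to 96.6%) in the control. Over both libraries the macrophage-like cells gave 33 of 36 UMIs to Tnfrsf13b, or 91.7% (77.5% to 98.2%). The share in B-like cells and the shares in plasma-like, plasmacytoid dendritic-like and macrophage-like cells thus had intervals that did not overlap, while those of the genotypes overlapped within each B-like cluster and within the plasmacytoid dendritic-like cells.

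**Figure D2:**
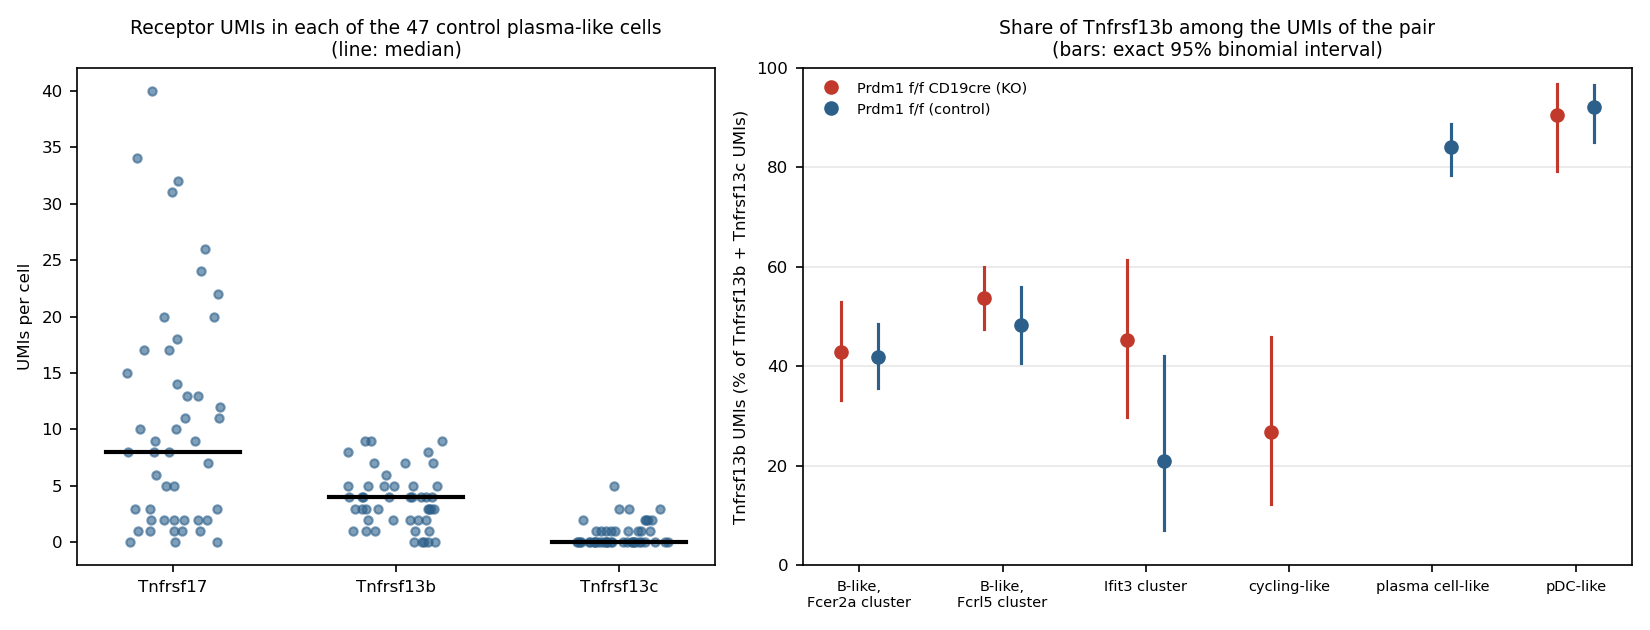
Left, UMIs of each receptor (y axis) in each of the 47 control plasma-like cells, with a line at the median: 8 for Tnfrsf17, 4 for Tnfrsf13b and 0 for Tnfrsf13c. Right, Tnfrsf13b as a percentage of the UMIs of Tnfrsf13b and Tnfrsf13c together (y axis) by group of cells (x axis), knockout left of control, with exact 95% binomial intervals; the share was 84.1% in plasma-like cells and between 41.9% and 53.8% in the B-like clusters.

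Co-detection within single cells was counted without thinning. In the Fcrl5 cluster 37 of 159 knockout and 26 of 47 control cells had UMIs of both Tnfrsf13b and Tnfrsf13c, at median depths of 3017 and 5685 UMIs. In the Fcer2a cluster 15 of 109 knockout and 37 of 180 control cells had both. Of the plasmacytoid dendritic-like cells, 26 of 38 knockout and 27 of 38 control cells had a Tnfrsf13b UMI without one of Tnfrsf13c. Depth differed between the libraries.

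Tnfsf13b, which encodes BAFF, was barely detected. The knockout library held 10 UMIs and the control library 16 in kept cells, or 1.87 CPM (0.894 to 3.43) and 2.30 CPM (1.32 to 3.74). Of the 26, 14 lay in a T-like cluster led by Penk and Cd8a, which encode proenkephalin and the CD8 alpha chain, with the inhibitory receptor gene Pdcd1 also among its leading genes. There the gene had 4 UMIs in 3 of 12 knockout cells, or 35.2 CPM (9.59 to 90.2), and 10 UMIs in 9 of 26 control cells, or 32.4 CPM (15.5 to 59.6). No cell of that cluster had more than 2 UMIs, and the ratio was 1.09 (0.249 to 3.77). Macrophage- or monocyte-like cells had 1 UMI in each library, and NK-like cells had 2 in the knockout and 1 in the control, so no ratio is given for either. In B-like cells there was 1 UMI, in a control cell. The Gpnmb cluster had none in 17 knockout and 72 control cells. A count of 0 does not show that cells lack the gene. At this depth BAFF transcripts were thus not detectable in most of the myeloid cells that passed these sort gates.

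Tnfsf13, which encodes APRIL, was a myeloid transcript here, and it was lower in knockout macrophage- or monocyte-like cells. All 191 of its UMIs in the kept control cells lay in 3 groups: the macrophage- or monocyte-like cells, an unnamed cluster led by Ace, Ear2, Adgre4 and Treml4, and the Gpnmb cluster. Of the 40 knockout UMIs, 4 lay in NK-like cells and the rest in the same groups. Of 268 knockout and 227 control B-like cells none had a UMI, which at these depths limits only the share of cells with a UMI, to 1.12% and 1.32%. Over all kept cells the level was 7.46 CPM in the knockout and 27.5 CPM in the control, a ratio of 0.271 (0.188 to 0.383), or 0.247 relative to the median of all genes. Macrophage- or monocyte-like cells were 5.32% of kept knockout and 12.2% of kept control cells, so that value holds both fewer such cells and a lower level within them.

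Within the macrophage- or monocyte-like cells Tnfsf13 had 19 UMIs in 46 knockout cells, or 58.8 CPM (35.4 to 91.8), and 107 UMIs in 98 control cells, or 124 CPM (102 to 150). The ratio was 0.473 (0.274 to 0.775). Per cell the lowest, median and highest values were 0, 0 and 3 UMIs in the knockout and 0, 0 and 8 UMIs in the control, so single cells of the genotypes overlapped widely. Thinned to 1500 UMIs, 14.0% (5.30% to 27.9%) of 43 knockout and 18.1% (10.9% to 27.4%) of 94 control cells had a UMI, with overlapping intervals. Thinned to 1000 UMIs the order turned, at 9.09% of 44 knockout and 8.42% of 95 control cells. Unthinned shares were 30.4% and 46.9%, at median depths of 7100 and 8642 UMIs. It was the 1 member with at least 50 UMIs in this group and was past 1.5-fold lower. Of 3073 genes with that many UMIs there, 7.84% were at least 1.5-fold lower and 5.99% at least 1.5-fold higher. The Tnfsf13 ratio of 0.473 lay beyond that fold, and the share of genes as low as it was not counted.

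**Figure D3:**
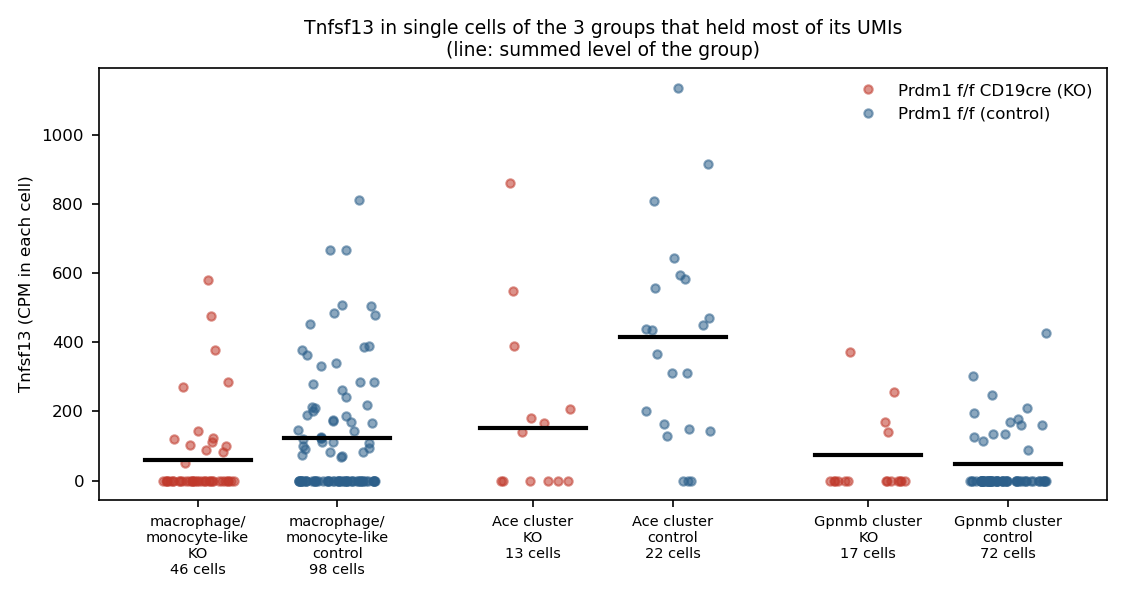
Tnfsf13 in each cell (y axis, CPM) of the macrophage- or monocyte-like group, the Ace cluster and the Gpnmb cluster, knockout left of control (x axis); lines are the summed level of each group. The lines stand at 58.8 and 124 CPM in the macrophage- or monocyte-like cells, at 153 and 417 CPM in the Ace cluster and at 74.0 and 49.1 CPM in the Gpnmb cluster.

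The Ace cluster, whose leading genes include Treml4 and Ear2, had the highest Tnfsf13 level of any group. It had 11 UMIs in 13 knockout cells, or 153 CPM (76.2 to 273), and 65 UMIs in 22 control cells, or 417 CPM (322 to 531). Per cell the lowest, median and highest values were 0, 1 and 3 UMIs in the knockout and 0, 2.5 and 8 UMIs in the control. The ratio was 0.366 (0.174 to 0.699). The share of cells with a UMI was 53.8% in the knockout and 86.4% in the control, 38.5% and 36.4% when thinned to 1500 UMIs, and 7.69% and 27.3% when thinned to 1000 UMIs, over 13 knockout and 22 control cells. The leading genes Treml4, Ace and Ear2 had ratios of 1.35 (0.763 to 2.32), 1.39 (0.944 to 2.04) and 1.02 (0.641 to 1.58) in the same cells. Lyz2, which encodes lysozyme, had 0.748 (0.675 to 0.828). In the Gpnmb cluster Tnfsf13 had 6 UMIs in 17 knockout cells, or 74.0 CPM (27.2 to 161), and 19 UMIs in 72 control cells, or 49.1 CPM (29.6 to 76.7). That ratio was 1.51 (0.493 to 3.92), an interval that overlapped those of the other groups.

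Finer clustering, chosen after the values had been seen, split the macrophage- or monocyte-like cells by their leading genes. Where C1qa, C1qb and C1qc led, which encode the chains of complement C1q, Tnfsf13 had 5 UMIs in 18 knockout cells, or 41.5 CPM (13.5 to 96.9), and 58 UMIs in 38 control cells, or 177 CPM (134 to 229). Where Cxcl10, Ccl2 and Chil3 led it had 14 UMIs in 27 knockout cells, or 72.4 CPM (39.6 to 122), and 47 UMIs in 59 control cells, or 89.4 CPM (65.7 to 119). The ratios were 0.235 (0.0734 to 0.579) and 0.810 (0.412 to 1.5), with overlapping intervals. The finer clusters split the libraries alike, with 18 and 27 knockout cells and 38 and 59 control cells. The level of C1qa differed, at 1296 CPM in knockout and 424 CPM in control macrophage- or monocyte-like cells. How far that went with the Tnfsf13 difference was not tested.

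Genes beside Tnfsf13 on chromosome 11 gave mixed values. Tnfsf12, which encodes TWEAK, another ligand of the family, stood at 68.0 CPM in knockout and 75.5 CPM in control macrophage- or monocyte-like cells, a ratio of 0.901 (0.529 to 1.48). Tnfsf13os had 2 knockout and 16 control UMIs there, and 3 and 15 in the Ace cluster. The ratios of Tnfsf13os were 0.333 (0.0371 to 1.41) and 0.433 (0.0803 to 1.53), with intervals that held 1. Its part in the Tnfsf13 difference was not tested, and reads of the overlapping pair cannot be told apart without strand.

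**Figure D4:**
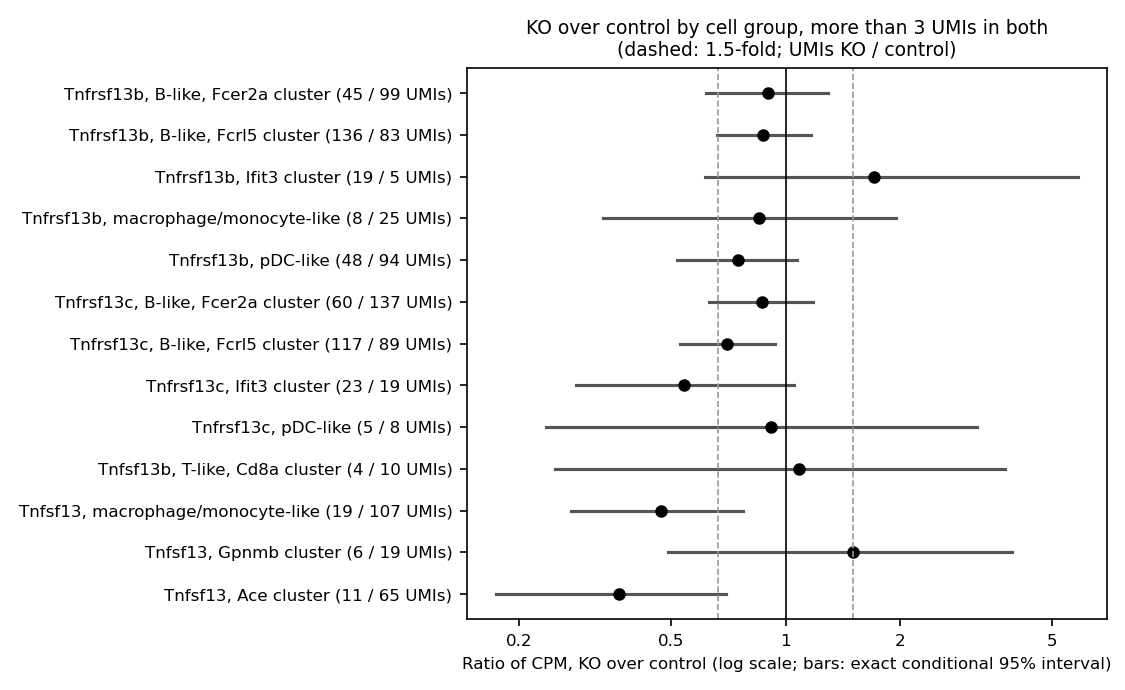
Ratio of the level in knockout over control cells (x axis, log scale) for each gene and cluster or named group with more than 3 UMIs in both libraries (y axis; the sums over B-like cells and over all kept cells are not drawn), with exact conditional 95% intervals and dashed lines at 1.5-fold. Of the ratios drawn, those whose interval leaves out 1 are Tnfrsf13c in the Fcrl5 cluster (0.529 to 0.936) and Tnfsf13 in the macrophage- or monocyte-like cells (0.274 to 0.775) and the Ace cluster (0.174 to 0.699).

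Levels across 26 units of cluster and genotype with at least 20 cells were used to find the genes most like each member, among 8106 genes with at least 100 UMIs. These units share libraries and lineages, so the correlations are a description. Tnfrsf17 was closest to Derl3 (r = 0.97), Jchain (0.91), Fkbp11 (0.89), Eaf2 (0.89) and Txndc11 (0.87). Without the control plasma-like cells r was 0.31 for Derl3, 0.67 for Jchain, 0.39 for Fkbp11, 0.18 for Eaf2 and 0.04 for Txndc11. Only 2 UMIs of Tnfrsf17 remain then, both in the knockout Fcrl5 cluster, so these values cannot show which genes go with it. Tnfrsf13b was closest to Blnk (0.93), the adaptor of B cell receptor signalling, and then to Ly6d (0.92), Fcrla (0.89), Ralgps2 (0.89) and Gm30211 (0.88). Tnfrsf13c was closest to Snn (0.95), Siglecg (0.94), an inhibitory lectin of B cells, Scd1 (0.94), H2-DMb2 (0.93), a chain of the peptide-loading chaperone of MHC class II, and Bend5 (0.93). Tnfsf13 was closest to Pilrb2, Ifitm6, Sirpb1a, Cd300ld and Gm9733, each with r of 0.98. Of those, Ifitm6 stood at 430 CPM in knockout and 795 CPM in control cells of the Ace cluster, a ratio of 0.541 (0.353 to 0.807). Sirpb1a had 0.333 (0.115 to 0.792) there, while Pilrb2, Cd300ld and Gm9733 had 1.16, 0.696 and 0.811 with intervals that held 1. In the macrophage- or monocyte-like cells the ratio of Ifitm6 was 1.16 (0.917 to 1.46) and that of Sirpb1a 1.33 (0.866 to 2.01). For Tnfsf13b the closest were Nrn1 (0.87), Penk (0.78), Fars2 (0.74), Cx3cr1 (0.67) and Syt11 (0.66), but this gene had few UMIs and r for Penk was 0.11 without its highest unit. Among the members, Tnfrsf13b and Tnfrsf13c were the most alike (r = 0.80).

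Other genes of the pathway were read in B-like cells from 8 lists of 81 genes. The lists were chosen with earlier results of these data known. Of the adaptors and ubiquitin ligases that act below these receptors, 6 of 9 had at least 50 UMIs, 1 was past 1.5-fold higher and 1 lower. Birc3, which encodes the ubiquitin ligase cIAP2, stood at 76.5 CPM in knockout and 123 CPM in control cells, a ratio of 0.623 (0.453 to 0.853). Myd88, an adaptor that TACI can bind, had a ratio of 1.59, with an interval of 0.896 to 2.88. Traf1, Traf5 and Birc2 had ratios of 0.932, 0.846 and 1.35, each with an interval that held 1. Traf3, the inhibitor of the noncanonical pathway that BAFF-R relieves, did not reach 50 UMIs, and Camlg was not analysed here.

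Of 12 genes of noncanonical and canonical NF-kB signalling, 8 had enough UMIs, none was past 1.5-fold higher and 2 were past it lower, with a median log2 ratio of -0.17 against -0.06 over all genes. Nfkb1, the p105 precursor of p50, stood at 84.3 CPM in knockout and 136 CPM in control cells, a ratio of 0.618 (0.457 to 0.832). Ikbkb, the kinase of the canonical pathway, had a ratio of 0.620 (0.413 to 0.922). Nfkb2, the p100 precursor that BAFF-R signalling processes, had a ratio of 1.15 (0.836 to 1.59), and Rel had 1.01 (0.756 to 1.35). Nfkbia, with the most UMIs of the list, had 0.920 (0.783 to 1.08). Nfkb1 had a ratio of 0.447 (0.302 to 0.659) in the Fcrl5 cluster and 0.819 (0.486 to 1.34) in the Fcer2a cluster. For Nfkb2 these were 1.02 (0.604 to 1.77) and 1.67 (1.09 to 2.55). The difference between clusters was not tested. Of 8 genes of the list with enough UMIs in the Fcer2a cluster, 1 was at least 1.5-fold higher and none at least 1.5-fold lower; their median was 0.07, and that of all genes -0.04. Of 6 in the Fcrl5 cluster 1 lay past that fold in each direction, and the medians were -0.04 for the list and -0.06 for all genes. The shares of the B-like cells in these clusters differ between genotypes.

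Among 9 survival genes 6 had enough UMIs over both B-like clusters. Of 3 with enough UMIs in the Fcer2a cluster none was past 1.5-fold. Of 5 in the Fcrl5 cluster 2 were past it lower, where 9.91% of 2431 genes were. The list medians leaned the other way, at 0.16 in the Fcer2a and 0.23 in the Fcrl5 cluster, against -0.04 and -0.06 for all genes. Over both clusters the list median was -0.11, against -0.06. Over both clusters 1 was past 1.5-fold, Bcl2a1b, a relative of Bcl2, at 0.623 (0.423 to 0.910). Near-identical copies of that gene exist, so its counts are uncertain. Mcl1, which BAFF signalling is known to sustain, had a ratio of 1.03 (0.915 to 1.17), Bcl2 1.44 (1.01 to 2.09), Pim1 1.31 (1.03 to 1.67) and Bax 0.828 (0.653 to 1.05). Of 8 genes of partner signalling 7 had enough UMIs, and 1 was past 1.5-fold lower. That was Akt1, a kinase below PI3K, at 39.4 CPM in knockout and 67.6 CPM in control cells, a ratio of 0.582 (0.372 to 0.899). Cd79a, Cd79b, Syk and Btk, which carry the signal of the B cell receptor, had ratios of 0.984, 1.03, 1.07 and 1.01.

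Among 8 proteases that shed or cut these receptors and ligands 5 had enough UMIs over both B-like clusters, and none was past 1.5-fold. Of 3 with enough UMIs in the Fcer2a cluster 1 was past it higher and 1 lower, and of 3 in the Fcrl5 cluster none was. Psenen, Aph1a, Psen2 and Ncstn, parts of the gamma-secretase that trims BCMA in plasma cells, had ratios of 1.13, 0.833, 1.35 and 1.10. Of 8 genes of heparan sulphate proteoglycans and their synthesis only Sdc4 had enough UMIs, with a ratio of 1.04 (0.729 to 1.5). Ext2, Ndst1 and Ndst2, which build or sulphate the chains, had 18, 9 and 2 knockout UMIs against 16, 6 and 5 control UMIs. Of 13 other TNF superfamily ligands only Ltb, which encodes lymphotoxin beta, did, at 1282 CPM in knockout and 1363 CPM in control cells, a ratio of 0.941 (0.866 to 1.02). Tnfsf9, Lta and Tnf had 26, 22 and 15 knockout UMIs against 10, 13 and 5 control UMIs. Of 14 other TNF receptors only Cd40 did, and it was past 1.5-fold lower, at 61.9 CPM in knockout and 133 CPM in control cells, a ratio of 0.465 (0.331 to 0.647). Cd40 encodes the receptor of T cell help on B cells. Tnfrsf18, Fas and Tnfrsf8 had 21, 15 and 4 knockout UMIs against 22, 22 and 6 control UMIs.

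**Figure D5:**
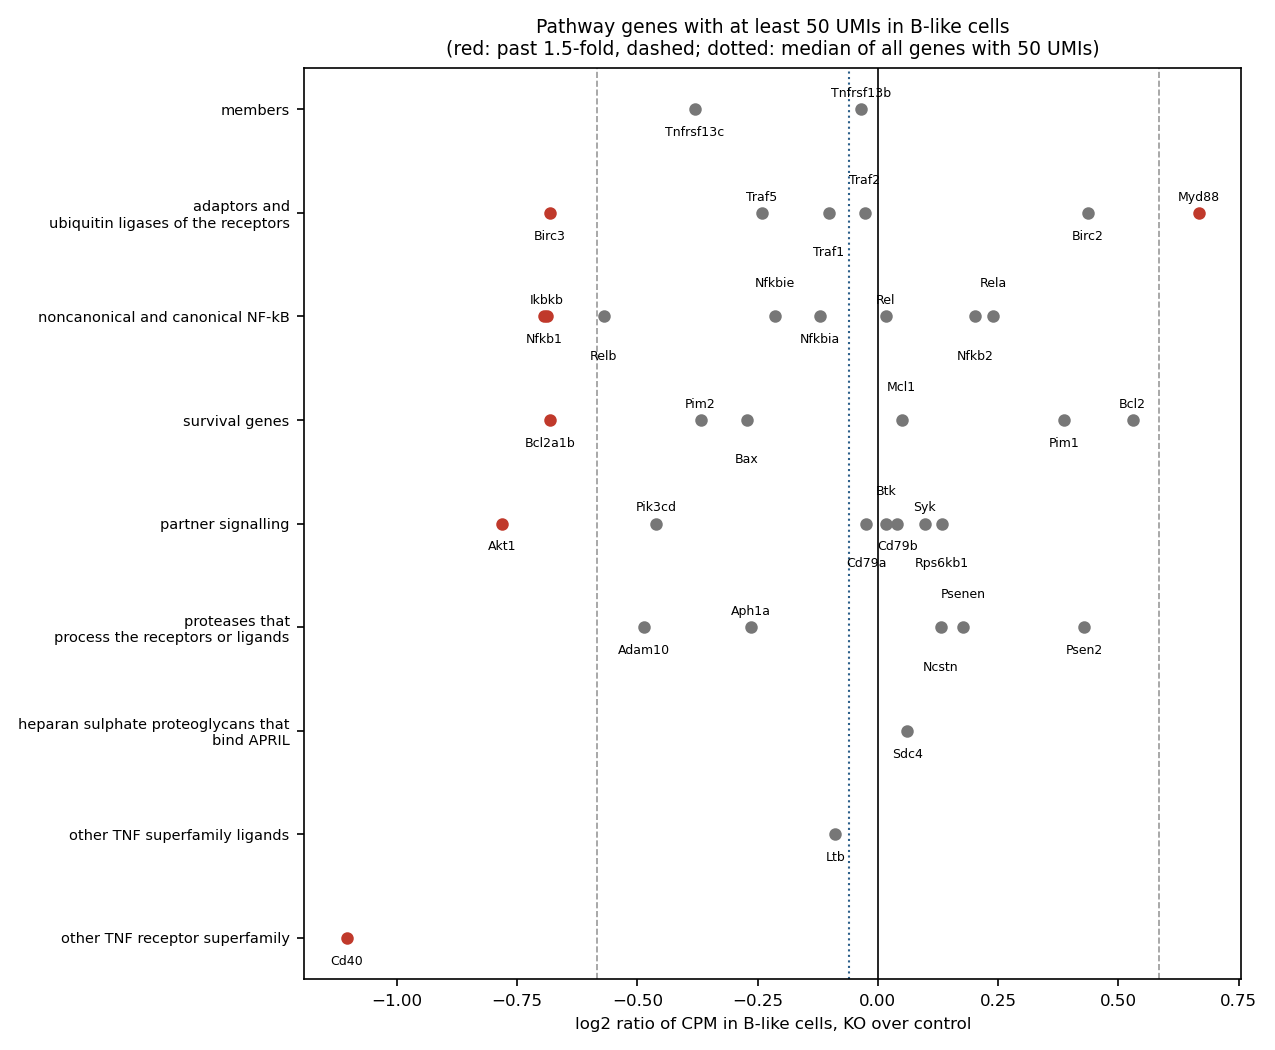
Log2 ratio of the level in knockout over control B-like cells (x axis) for the members and the genes of each pathway list (y axis) with at least 50 UMIs, with dashed lines at 1.5-fold and a dotted line at the median of all such genes. Tnfrsf13c and Tnfrsf13b lie inside the dashed lines, and Cd40, Akt1, Nfkb1, Ikbkb, Birc3, Bcl2a1b and Myd88 lie outside them.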

How the data were processed

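The authors deposited an expression matrix per genotype with the UMI count of every gene in every barcode. Cell Ranger 6.0.0 wrote them, per the file headers, with mm10 (GRCm38) as the build in the submitters' processing notes. The deposited V(D)J tables held contigs with read and UMI counts. Barcodes were removed below 200 genes or above 10% mitochondrial UMIs (23 knockout, 11 control), as were Scrublet doublets (3 and 1) and barcodes with 2 heavy chains (6 and 0). Cells of both libraries were clustered together in Scanpy 1.11.5 with 2000 variable genes, 30 components, 15 neighbours and Leiden resolution 1, without batch correction, and clusters were named from 19 marker lists. Counts were summed per group and genotype. CPM had exact Poisson intervals, ratios exact conditional binomial intervals and shares Clopper-Pearson intervals, all at 95%. The Poisson and ratio intervals, but not those of shares, were tried on simulated counts. Those counts were drawn from the Poisson model that the intervals assume, so they do not check that model. A count of 0 allows 3 counts of the total. Ratios were read for genes with at least 50 UMIs, called past 1.5-fold. No test was run, as each genotype has 1 library, and intervals do not cover the spread between mice or libraries. Similar genes were ranked by Pearson's r of log2(CPM + 10) over clusters and genotypes, leaving out immunoglobulin, T cell receptor, mitochondrial and ribosomal protein genes. Named pathway genes were the 4 of each list with the most UMIs in B-like cells and each past 1.5-fold there. Others were named for their position, their marker role or after their values were seen. Members and lists were chosen with earlier results of these data known. Of the lists, 1 gene of the partner signalling list is not reported here.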

Additional observations from a re-analysis of the deposited data

How the results depend on the processing

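No paired analysis was possible because each genotype is 1 expression library. Of 73 recomputed ratios and CPM values, 71 stayed within the 95% interval of the value reported and 2 moved out of it. Some settings, such as keeping the members for clustering, left the same cells in each group and repeated the same value. Of the ratios that were recomputed, those past 1.5-fold as reported were those of Tnfsf13 in macrophage- or monocyte-like cells and in the Ace cluster. Neither changed direction, in 11 and 9 alternatives. The Tnfrsf13b ratio in B-like cells, with an interval that holds 1, ranged between 0.885 and 1.05; it was above 1 as a mean over cells (1.05) and divided by the median ratio of all genes (1.02). The moved values were Tnfrsf17 in control plasma-like cells, at 886 CPM with immunoglobulin UMIs left out of the total and 557 CPM as a mean over cells. Tnfsf13 in macrophage- or monocyte-like cells ranged between 0.432 and 0.612. The value of 0.612 came with the Gpnmb cluster counted in, an alternative chosen after seeing the data, and again at Leiden resolution 0.5. Tnfrsf13c in B-like cells ranged between 0.632 and 0.866, and with B cells taken by their heavy chain its interval of 0.682 to 1.11 held 1. The value of 0.632 (0.487 to 0.816), at Leiden resolution 2, was past 1.5-fold lower, unlike the value reported. Leiden resolution 0.5 left only the Fcrl5 cluster named as B-like, and resolution 2 left part of it unnamed. Without a barcode filter no B-like cluster took a name, so those ratios have no value there. The ratios of Tnfsf13b in macrophage- or monocyte-like and NK-like cells, with at most 2 UMIs in a library, have none under any setting. Shares depend on depth: 15 of 18 moved, to higher values without thinning or lower ones when thinned to 1000 UMIs, which also turned the order of the genotypes for Tnfsf13 in macrophage- or monocyte-like and Tnfrsf13b in plasmacytoid dendritic-like cells. Leaving out replicates was not possible with 1 library each. Tnfsf13b had 26 UMIs in all, which leaves its intervals wide.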
